A study of Mus musculus with 7 samples.

Results

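The genes described here make and sense prostaglandins and leukotrienes. They were taken from a list of 10 (Ptgs1, Ptgs2, Ptges, Ptges2, Ptges3, Pla2g4a, Alox5, Alox5ap, Ptger2 and Ptger4), and 8 of the 10 had an array probe set that carries their symbol alone (12 probe sets), among 18193 such genes. No probe set is named Ptgs1 in the annotation used here, and the 2 probe sets of Ptges3 are shared with a pseudogene, so neither gene is analysed here. Mouse macrophages grown from bone marrow were kept for 24 h untreated (naive), with MDP or with Pam3CSK4, and then for 3 h with no ligand, MDP or Pam3CSK4. MDP is a fragment of bacterial peptidoglycan sensed in the cytosol, and Pam3CSK4 is a synthetic bacterial lipopeptide sensed by a Toll-like receptor at the cell surface. The 7 groups were naive cells without ligand, naive cells given MDP, naive cells given Pam3CSK4, MDP then MDP, MDP then Pam3CSK4, Pam3CSK4 then MDP, and Pam3CSK4 then Pam3CSK4. The labels write the doses as 10 mg/ml MDP and 1 mg/ml Pam3CSK4 in both periods, give no mouse strain, genotype or age, and number each array as replicate 2. The dose unit is given as written there and may have lost a micro sign, so the doses are uncertain. There was 1 array per group, so no difference below has a replicate check or a p-value. The arrays measured RNA of whole cultures, in which fewer cells of a type and less RNA per cell cannot be told apart.

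Prostaglandins and leukotrienes are short-lived lipid signals cut from membrane arachidonic acid. Cytosolic phospholipase releases the acid, and cyclooxygenases turn it into an intermediate. Terminal synthases convert the intermediate, among others, to prostaglandin E, which acts on surface receptors, some of which raise cyclic AMP. In a separate branch, arachidonate lipoxygenase and its membrane partner make the leukotriene precursor. In macrophages the inducible cyclooxygenase and the inducible prostaglandin E synthase are known as products of Toll-like receptor signalling, and the prostaglandin made feeds back on cytokine production.

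Expression is given as deposited log2 values, and a difference is the log2 value on one array minus that on another. A value below the median of its own array (5.48 to 5.55) was treated as background. A difference against such a value was counted from that median and is written as a bound, and where both values lay below it no fold is given. The study's own thresholds were used: 3-fold for induction over cells without ligand, and 2-fold between pretreated and naive cells, here also between ligands. All 8 macrophage markers looked at, Csf1r and Adgre1 among them, lay above the median on every array, with a list mean from 12.63 to 13.24. Of the markers of other cells, 5 of 9 for mast cells and basophils lay below it on every array, Cpa3 and Fcer1a included. So did 5 of 7 for stromal cells, 3 of 5 for dendritic cells and 3 of 6 for lymphocytes. Above it on every array were Tpsab1 and Hdc for mast cells and basophils, and Col1a2 and Dcn for stromal cells. The same held for Flt3 of dendritic cells, Cd3e and Cd79b of lymphocytes, 7 of 8 neutrophil and 3 of 4 platelet markers. On the Pam3CSK4 then Pam3CSK4 array the 3 control probe sets for 18S ribosomal RNA stood at a median of 1.70 over the array without ligand, against 0.28 to 0.48 on the other stimulated arrays. The part this plays in results from that array was not tested, and values from the Pam3CSK4 then MDP array are given beside them.

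In naive macrophages the inducible genes of the prostaglandin E route were past 3-fold with Pam3CSK4, and none was with MDP. With Pam3CSK4, 3 of the 8 genes were at least 3-fold higher than without ligand, namely Ptgs2, Ptges and Ptger4, against 1.28% of all genes, and the median difference was 0.51 against 0.00 over all genes. With MDP it was 0 of 8, against 0.22% of all genes. At 2-fold, 2 of 8 were higher with MDP as deposited, Ptger4 and Ptges, against 0.583% of all genes. The bound of Ptges (at least 1.53-fold) does not settle whether it reached 2-fold. Its other probe sets were at 0.69 (measured) and 0.86 as deposited (at least 0.39). Set directly against MDP, Pam3CSK4 gave at least 2-fold more of 4 of the 8 (Ptgs2, Ptges, Ptger4 and Pla2g4a), against 1.4% of all genes, with a median of 0.62 against -0.03. At 3-fold it was 2 of them, Ptgs2 and Ptges, against 0.577% of all genes. The lipoxygenase gene Alox5 and its partner Alox5ap, the constitutive synthase gene Ptges2 and the receptor gene Ptger2 differed from the level without ligand by -0.23 to 0.13 after either ligand.

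**Figure D1:**
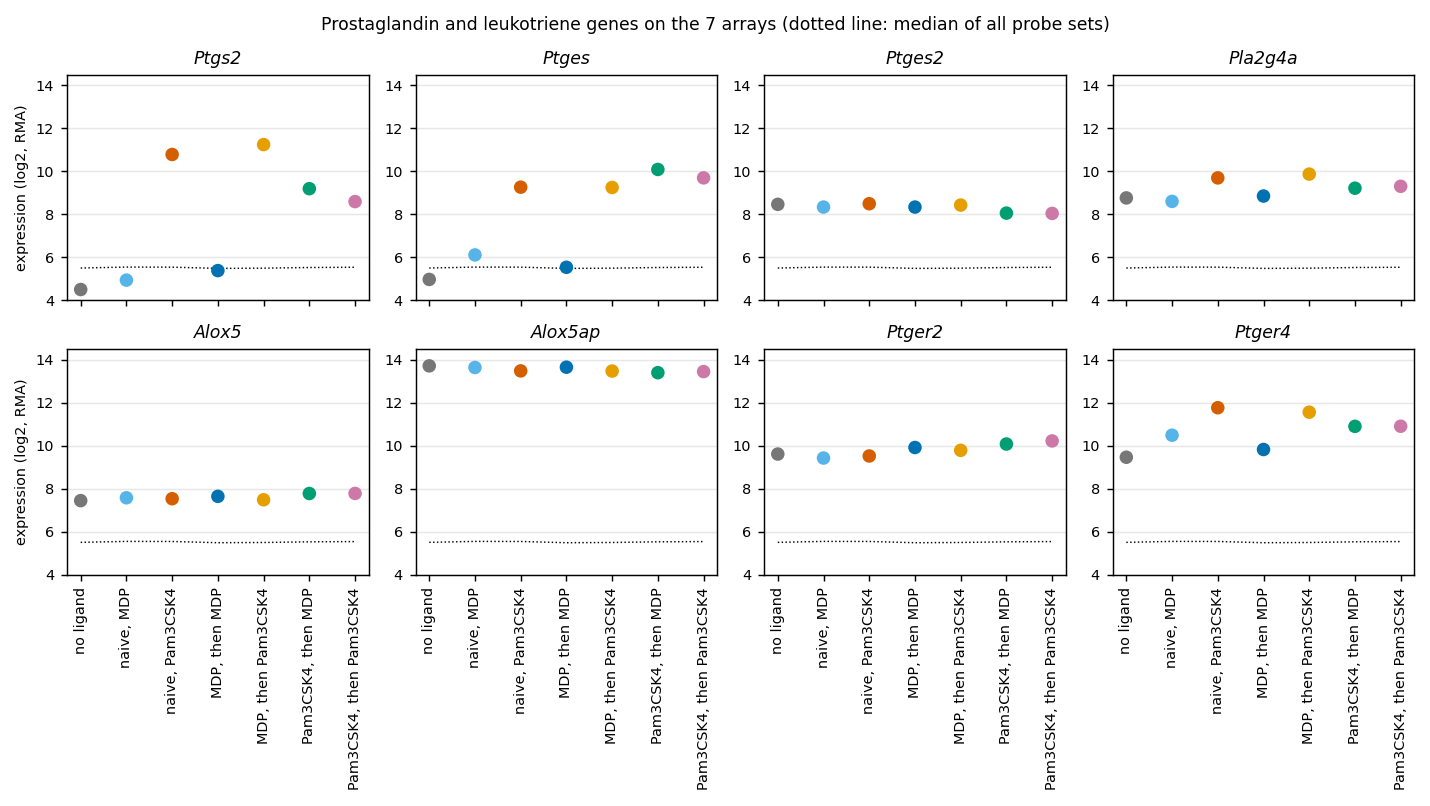
Expression (log2) of the 8 genes on each of the 7 arrays, 1 point per array, with the median of all probe sets on that array as a dotted line. Ptgs2 and Ptges lie near or below that line in cells that met no Pam3CSK4 and between 8.59 and 11.24 in the 4 groups that did.

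Pla2g4a encodes the cytosolic phospholipase that releases arachidonic acid. Its level was 8.76 without ligand, 8.60 with MDP and 9.69 with Pam3CSK4 in naive cells, 8.85 for MDP then MDP, 9.87 for MDP then Pam3CSK4, 9.21 for Pam3CSK4 then MDP and 9.30 for Pam3CSK4 then Pam3CSK4. The highest values were those of the 2 arrays on which Pam3CSK4 was first met in the last 3 h. Over cells without ligand it was 1.91-fold higher with Pam3CSK4 and 2.16-fold higher for MDP then Pam3CSK4, short of 3-fold on both. It had a single probe set, so no second measurement of it exists on these arrays.

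Ptgs2 encodes the inducible cyclooxygenase. Its level was 4.50 without ligand, 4.94 with MDP in naive cells and 5.38 for MDP then MDP, all below the median of their arrays. It was 10.78 in naive cells given Pam3CSK4, 11.24 for MDP then Pam3CSK4, 9.19 for Pam3CSK4 then MDP and 8.59 for Pam3CSK4 then Pam3CSK4. Every array whose cells had met Pam3CSK4, early or late, was thus higher than every array whose cells had not. Over cells without ligand, it was at least 38.9-fold higher with Pam3CSK4, at least 53.5-fold for MDP then Pam3CSK4, at least 12.9-fold for Pam3CSK4 then MDP and at least 8.52-fold for Pam3CSK4 then Pam3CSK4. Against naive cells given MDP, it was at least 37.7-fold higher in naive cells given Pam3CSK4.

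Ptges encodes the inducible membrane-bound prostaglandin E synthase, which acts after cyclooxygenase. Its level was 4.97 without ligand, 6.11 with MDP and 9.26 with Pam3CSK4 in naive cells, 5.54 for MDP then MDP, 9.25 for MDP then Pam3CSK4, 10.09 for Pam3CSK4 then MDP and 9.70 for Pam3CSK4 then Pam3CSK4. The 4 arrays with Pam3CSK4 again stood above the other 3, but here the 2 Pam3CSK4-pretreated arrays were the highest, whereas for Ptgs2 they were the lower of the 4. Another probe set of Ptges placed naive Pam3CSK4 (8.61) just above Pam3CSK4 then Pam3CSK4 (8.51), with Pam3CSK4 then MDP (8.94) highest. Over cells without ligand Ptges was at least 13.6-fold higher with Pam3CSK4, at least 24.0-fold for Pam3CSK4 then MDP and at least 18.3-fold for Pam3CSK4 then Pam3CSK4. With MDP it was at least 1.53-fold higher. These bounds are those of the probe set used, and another probe set gave smaller differences, listed below. Ptges2, a second and constitutive synthase gene, ranged from 8.04 to 8.49, and its 2 lowest values, 8.04 and 8.06, were those of the Pam3CSK4-pretreated arrays.

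Ptger4 and Ptger2 encode receptors for prostaglandin E that couple to cyclic AMP. Ptger4 was at 9.46 without ligand, 10.48 with MDP and 11.76 with Pam3CSK4 in naive cells, 9.82 for MDP then MDP, 11.55 for MDP then Pam3CSK4, 10.90 for Pam3CSK4 then MDP and 10.90 for Pam3CSK4 then Pam3CSK4. Unlike Ptgs2 it was higher with MDP too, by 2.03-fold, and with Pam3CSK4 by 4.93-fold. Ptger2 was at 9.61 without ligand, 9.42 and 9.52 in naive cells given MDP and Pam3CSK4, 9.91 for MDP then MDP, 9.78 for MDP then Pam3CSK4, 10.07 for Pam3CSK4 then MDP and 10.22 for Pam3CSK4 then Pam3CSK4. All 4 pretreated arrays were above all 3 naive arrays for Ptger2, yet the whole range was 1.74-fold and no pretreated array reached 2-fold over its naive counterpart.

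Alox5 encodes the lipoxygenase that starts leukotriene synthesis, and Alox5ap the membrane protein that presents arachidonic acid to it. Alox5 ranged from 7.44 without ligand to 7.78 for Pam3CSK4 then Pam3CSK4, with 7.57 and 7.53 in naive cells given MDP and Pam3CSK4, 7.64 for MDP then MDP, 7.48 for MDP then Pam3CSK4 and 7.77 for Pam3CSK4 then MDP. Alox5ap ranged from 13.71 without ligand down to 13.39 for Pam3CSK4 then MDP. It was at 13.63 and 13.48 in naive cells given MDP and Pam3CSK4, 13.65 for MDP then MDP, 13.47 for MDP then Pam3CSK4 and 13.44 for Pam3CSK4 then Pam3CSK4. Alox5 was lowest, and Alox5ap highest, without ligand. The ranges were 1.26-fold and 1.25-fold, which without replicate arrays cannot be set against the spread between cultures.

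**Figure D2:**
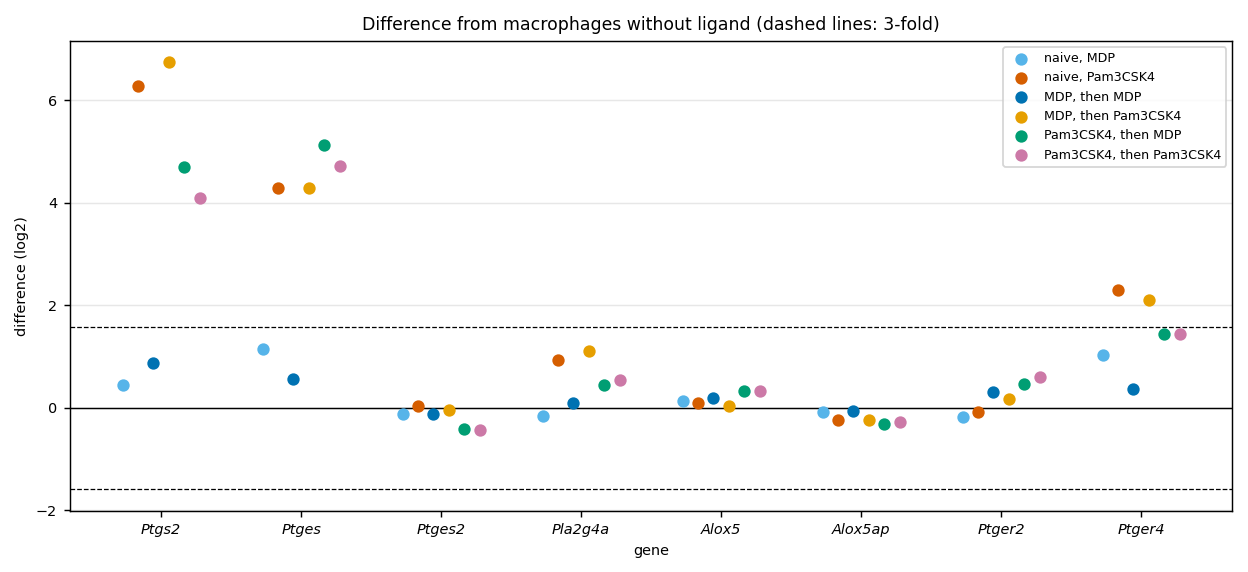
Log2 difference of each gene from the array without ligand, 1 point for each of the 6 stimulated arrays, as deposited and without bounds, with dashed lines at 3-fold. Ptgs2 and Ptges are past the upper line on the 4 arrays with Pam3CSK4, Ptger4 on the 2 with Pam3CSK4 in the last 3 h after no pretreatment or after MDP, and the lowest point of all is Ptges2 at -0.42.

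The promoters of the 3 genes past 3-fold with Pam3CSK4, Ptgs2, Ptges and Ptger4, are shown with that of Alox5, which stayed near its starting level, so that genes that moved together can be read beside one that did not. The sequences are RefSeq's, build GRCm38.p6, from 250 bases before to 50 after an annotated start, written 5′ to 3′ in the direction of the gene. Capitals mark matches to any motif searched on both strands: the NF-kB consensus, C/EBP (TTNNGNAA), the cyclic AMP response element (TGACGTCA) and its half-site (TGACG), AP-1 (TGANTCA), the E-box (CACGTG), the TATA box (TATAAA) and the GC box (GGGCGG).
Ptgs2, chr1:150099781-150100080, plus strand: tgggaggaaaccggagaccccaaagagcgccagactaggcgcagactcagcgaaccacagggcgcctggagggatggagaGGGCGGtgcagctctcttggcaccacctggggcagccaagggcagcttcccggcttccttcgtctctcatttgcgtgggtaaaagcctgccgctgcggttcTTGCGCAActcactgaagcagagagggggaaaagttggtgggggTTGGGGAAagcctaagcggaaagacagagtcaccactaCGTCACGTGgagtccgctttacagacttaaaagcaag
Ptges, chr2:30903248-30903547, minus strand: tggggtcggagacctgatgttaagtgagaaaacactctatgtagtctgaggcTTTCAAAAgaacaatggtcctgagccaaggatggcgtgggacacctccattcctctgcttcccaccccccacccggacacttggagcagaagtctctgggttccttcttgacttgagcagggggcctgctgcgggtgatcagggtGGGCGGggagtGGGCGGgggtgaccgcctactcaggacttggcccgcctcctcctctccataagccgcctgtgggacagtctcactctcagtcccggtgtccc
Ptger4, chr15:5244138-5244437, minus strand: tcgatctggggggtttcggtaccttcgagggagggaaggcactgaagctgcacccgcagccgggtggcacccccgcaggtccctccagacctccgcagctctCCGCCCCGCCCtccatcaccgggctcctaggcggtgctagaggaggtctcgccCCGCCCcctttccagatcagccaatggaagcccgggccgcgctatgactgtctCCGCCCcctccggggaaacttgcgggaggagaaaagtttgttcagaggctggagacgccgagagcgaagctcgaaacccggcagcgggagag
Alox5, chr6:116461129-116461428, minus strand: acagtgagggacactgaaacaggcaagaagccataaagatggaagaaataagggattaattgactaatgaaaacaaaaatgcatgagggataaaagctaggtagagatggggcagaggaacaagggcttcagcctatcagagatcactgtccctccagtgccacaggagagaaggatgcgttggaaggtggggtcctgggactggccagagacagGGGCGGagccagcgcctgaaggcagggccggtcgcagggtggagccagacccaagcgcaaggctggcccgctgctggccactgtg

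The Ptgs2 window held the E-box, found in 7.15% of all 32851 windows of the same length, overlapping a half-site of the cyclic AMP response element (20.8% of windows), both after the annotated start. It also held 1 GC box and a C/EBP match that reads on both strands, TTGCGCAA, 69 bases before that start, and another 25 bases before it (40.7% of windows hold at least 1). Ptges held 2 GC boxes and 1 C/EBP match, Ptger4 held 4 GC boxes, the first 2 of them overlapping in 1 stretch, and Alox5 held 1 GC box (35.7% of windows). The motif shared by these 4 windows was the GC box. Of listed genes not shown, Ptges2 held an E-box and a C/EBP match, 77 and 48 bases before its start. Ptger2 held 3 C/EBP matches. Their ranges over the arrays were 1.37-fold and 1.74-fold, so the E-box and C/EBP letters were not confined to genes that moved. No window of the 9 listed genes with an entry held an NF-kB match (4.51% of all windows), an AP-1 match (7.81%) or the full cyclic AMP response element (1.79%), which says only that these letters are not in these windows. Alox5ap had no entry.

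After MDP pretreatment no gene of the 8 was past 2-fold from its naive level under either ligand. For MDP then MDP against naive cells given MDP, 0 of 8 were 2-fold higher and 0 of 8 were 2-fold lower, against 0.385% and 0.291% of all genes, with a median of 0.04 against -0.01. The lowest differences were those of Ptger4 (-0.66) and Ptges (-0.57), the 2 genes with the highest differences over no ligand in naive cells given MDP. Both comparisons share the naive MDP array, so a high reading on that array alone would give this match. Compared with cells without ligand, 0 of 8 were 3-fold higher for MDP then MDP (0.126% of all genes), and Ptger4 was at 0.36. For MDP then Pam3CSK4 against naive cells given Pam3CSK4, 0 of 8 were past 2-fold on either side, against 0.297% of all genes higher and 0.022% lower, with a median of -0.01 against 0.00. Ptgs2 was at 0.46, Ptger4 at -0.21 and Ptges at -0.01 in that comparison. Against cells without ligand, 3 of 8 were 3-fold higher for MDP then Pam3CSK4, against 1.79% of all genes, and they were Ptgs2, Ptges and Ptger4. Within MDP-pretreated cells, Pam3CSK4 gave at least 2-fold more than MDP of 4 of 8 genes, against 2.41% of all genes, and Ptgs2 stood at least 54.1-fold and Ptges 13.1-fold higher. The fourth, Pla2g4a, was at 1.02, and at 0.97 with 32 added to the linear values.

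After Pam3CSK4 pretreatment the outcome for Ptgs2 depended on which naive array it was set against, while Ptges was not 2-fold lower in either comparison. For Pam3CSK4 then MDP against naive cells given MDP, Ptgs2 was at least 12.5-fold and Ptges 15.7-fold higher, though another Ptges probe set was at 2.01. These were 2 of 8 genes past 2-fold higher and 0 lower, against 2.14% and 1.71% of all genes, with a median of 0.51 against 0.00. For Pam3CSK4 then Pam3CSK4 against naive cells given Pam3CSK4, Ptgs2 was 4.56-fold lower, 1 of 8 genes past 2-fold lower against 2.3% of all genes. None of the 8 was 2-fold higher, against 2.41%, and the median was -0.21 against 0.01. Ptges was at 0.43, Ptger4 at -0.86, Pla2g4a at -0.39, Ptges2 at -0.45 and Ptger2 at 0.70. With the mean of the probe sets of a gene, Ptger4 was at -1.07 and the count of genes 2-fold lower was 2, against 1.81% of all genes treated in that way. On the naive MDP and naive Pam3CSK4 arrays the marker list means were 12.75 and 12.63 for macrophages, 8.67 and 8.85 for neutrophils, 7.20 and 6.87 for platelets and 5.24 and 5.21 for stromal cells. On the Pam3CSK4-pretreated arrays they were 13.19 and 13.24, 9.01 and 8.91, 7.61 and 7.66, and 5.64 and 5.51. On the MDP then MDP and MDP then Pam3CSK4 arrays they were 12.96 and 12.80, 8.91 and 9.10, 7.19 and 6.87, and 5.22 and 5.28. The neutrophil mean was thus higher than in naive cells given the same ligand after either pretreatment. Above the median on every array were 7 of 8 neutrophil and 3 of 4 platelet markers, and the stromal Col1a2 and Dcn. Below it on every array were Mpo, Gp5 and 5 of 7 stromal markers, Col1a1 and Col3a1 among them. The part these shifts in marker means play in the differences from naive cells was not tested.

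**Figure D3:**
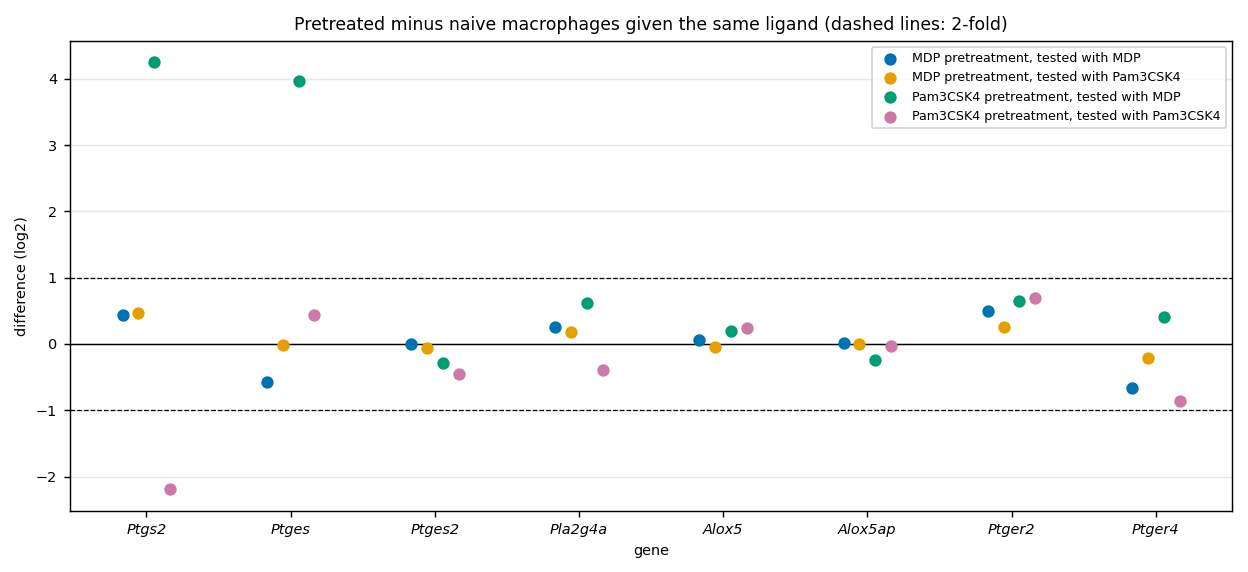
Log2 difference between pretreated and naive macrophages given the same ligand in the last 3 h, 1 point for each of the 4 comparisons per gene, as deposited and without bounds, with dashed lines at 2-fold. Ptgs2 is the gene with points past both lines, at 4.25 for Pam3CSK4 then MDP and at -2.19 for Pam3CSK4 then Pam3CSK4, and Ptges is past the upper line at 3.97.

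The Pam3CSK4-pretreated arrays were close to each other whichever ligand came second. Over all genes, 0% were 2-fold higher and 0.0055% were 2-fold lower with Pam3CSK4 than with MDP, and 0 of the 8 were. Ptgs2 was 1.52-fold lower with the second Pam3CSK4 than with MDP, the 17th lowest difference of 18193 genes, and Ptges was 1.31-fold lower. Both were still past 3-fold over cells without ligand: 2 of 8 genes, Ptges and Ptgs2, were 3-fold higher for Pam3CSK4 then MDP, against 1.42% of all genes, and 2 of 8, again Ptges and Ptgs2, for Pam3CSK4 then Pam3CSK4, against 1.37%. Ptger4 was 2.71-fold and 2.72-fold higher there, short of 3-fold. Since every pretreated culture was given a second ligand, RNA left from the first 24 h and RNA made in the last 3 h cannot be told apart.

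Other probe sets of the same genes gave the same order of high and low arrays for Ptger4 (Pearson r of 1.00 over the 7 arrays) and nearly so for Ptges (r of 0.99 to 1.00 between its 3) and Ptgs2 (0.97 between its 2), as a description. On the 3 arrays without Pam3CSK4, where both Ptgs2 probe sets lay below the median, they differed in order, and for naive MDP over no ligand they were at 0.44 and -0.52. The second Ptgs2 probe set was at 3.97 as deposited (at least 2.98) for naive Pam3CSK4 over no ligand, where the first was at 6.28 as deposited. It was at -2.33 for Pam3CSK4 then Pam3CSK4 against naive Pam3CSK4, and at 2.92 (at least 1.37) for Pam3CSK4 then MDP against naive MDP, on the same sides as the first. Over no ligand, however, its bounds on the Pam3CSK4-pretreated arrays were at least 1.41 with MDP and at least 0.64 with Pam3CSK4, short of 3-fold, where the deposited differences of 2.41 and 1.64 were past it. The other Ptges probe sets were at 2.37 and 3.82 as deposited for naive Pam3CSK4 over no ligand, and at -0.10 and 0.13 for the second against the first Pam3CSK4. For Pam3CSK4 then MDP they were at 2.01 and 3.42 against naive MDP, and at 2.70 and 4.28 as deposited over no ligand. For Pam3CSK4 then Pam3CSK4 over no ligand they were at 2.26 and 3.96 as deposited. Within MDP-pretreated cells they were at 2.02 and 3.86 as deposited for Pam3CSK4 over MDP. The first of them lay above the median on every array, so its differences are measured. The second Ptger4 probe set was at 2.94 as deposited (at least 2.35) for naive Pam3CSK4 and at -1.29 for the second against the first Pam3CSK4, past 2-fold where the brighter one was not.

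**Figure D4:**
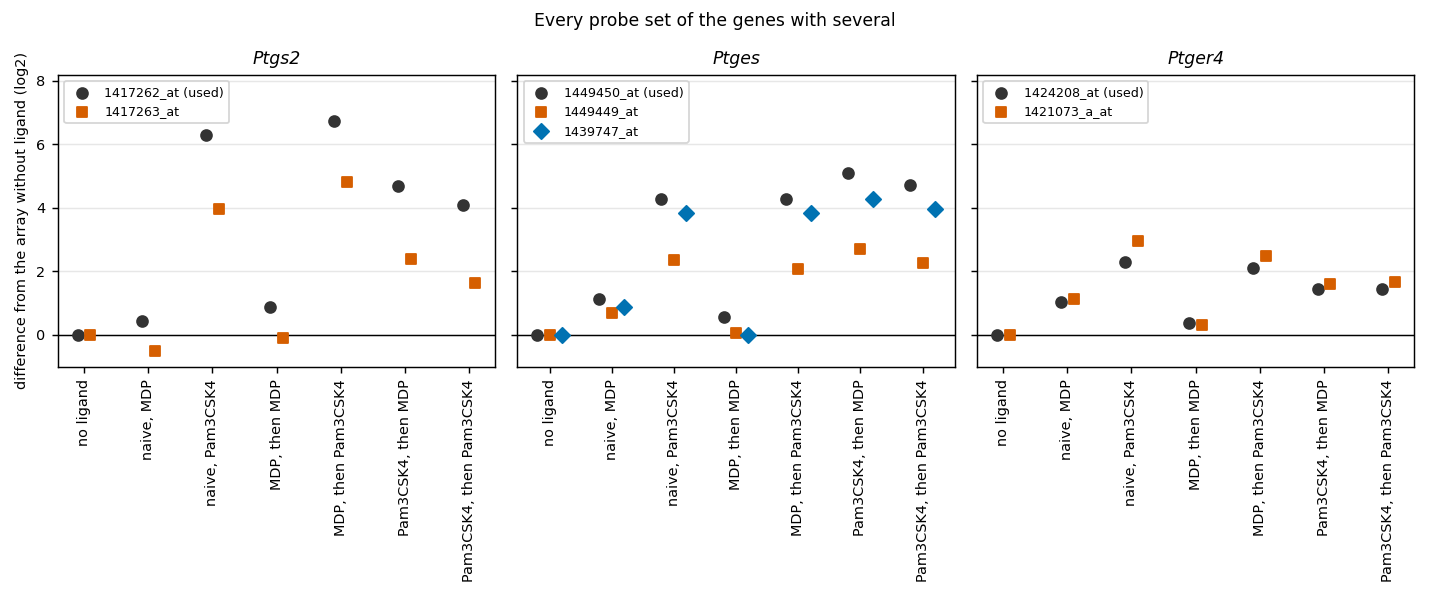
Log2 difference from the array without ligand for every probe set of Ptgs2 (2), Ptges (3) and Ptger4 (2) on the 7 arrays, as deposited, with the one used in the text as dark circles. Every probe set shown is higher on the 4 arrays with Pam3CSK4 than on the other 3, and the second Ptgs2 probe set lies below the first on all 6 stimulated arrays.

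Among 1903 genes outside the list with a log2 range of at least 1 and a highest value above the array median, those most like Ptgs2 over the 7 arrays were Ppfia3 (r of 1.00, range 3.83), the glycolysis regulator gene Pfkfb3 (0.99, range 1.85) and Zc3h12a, which encodes an RNase that degrades cytokine messages (0.99, range 3.23). Those most like Ptges were Cd200, an inhibitory surface ligand gene (1.00, range 3.85), Rgl1 (1.00, range 1.44) and Rilpl2 (1.00, range 1.70). All 3 of the latter had their highest values on the 2 Pam3CSK4-pretreated arrays, as Ptges did. Those most like Alox5 were Igfbp6 (0.95), Akap12 (0.95) and the arginase gene Arg1 (0.94), but the range of Alox5 itself was only 0.33. These correlations were the highest of many over 7 points, and are given as descriptions.

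Around these 8, 54 other genes of arachidonic acid release, prostanoid and leukotriene synthesis, breakdown, transport and sensing were listed, and 50 had a probe set. Of the 50, 10 were below the median on every array, among them the lipoxygenase genes Alox8, Alox12, Alox12b and Alox15 and the prostacyclin synthase gene Ptgis. None of the 50 was 3-fold higher with MDP in naive cells (0.22% of all genes), and with Pam3CSK4 it was 1 of 50 (1.28% of all genes), Fpr2, a receptor for formyl peptides and lipoxin. Against naive MDP, Fpr2 (2.03), the prostaglandin transporter gene Abcc4 (1.05) and the lysophospholipid acyltransferase gene Lpcat1 (1.04) were 2-fold higher with Pam3CSK4, 3 of 50 against 1.4% of all genes, though Abcc4 (0.99 with 32 added to the linear values) and Lpcat1 (0.68 when its probe sets are averaged) fell short in other settings. After MDP pretreatment 1 of 50 was 2-fold higher under MDP, against 0.385% of all genes, the leukotriene receptor gene Cysltr1 (1.05, or 0.94 with 32 added). Its level for MDP then MDP was 8.67, against 7.63 in naive cells given MDP and 8.21 without ligand. Under Pam3CSK4, 1 of 50 was higher and 1 lower, against 0.297% and 0.022% of all genes. Fpr2 was higher (1.42) and the prostaglandin dehydrogenase gene Hpgd lower (-1.03, short of 2-fold in 5 alternative settings, from -0.98 to -0.48). Within MDP-pretreated cells, 2 of 50 were higher and 1 lower with Pam3CSK4 than with MDP, against 2.41% and 1.42% of all genes. Fpr2 (2.61) and Abcc4 (1.21) were higher, and the secreted phospholipase gene Pla2g5 was lower (-1.10, or -0.75 with 32 added).

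After Pam3CSK4 pretreatment more of the 50 were past the threshold. For Pam3CSK4 then MDP against naive MDP, 5 of 50 were 2-fold higher and 3 of 50 lower, and for Pam3CSK4 then Pam3CSK4 against naive Pam3CSK4, 5 and 4 of 50. Over all genes the shares were 2.14% and 1.71%, and 2.41% and 2.3%. The same 5 were higher in both. Pla2g7, the secreted hydrolase of platelet-activating factor, was at 9.61 without ligand, 9.51 and 9.32 in naive cells given MDP and Pam3CSK4, 10.07 for MDP then MDP, 9.91 for MDP then Pam3CSK4, and 12.56 and 12.55 on the Pam3CSK4-pretreated arrays, 8.31-fold and 9.38-fold over the naive counterparts. Lpcat2, which makes platelet-activating factor, was 2.49-fold and 3.31-fold higher. The receptor genes for leukotriene B, Ltb4r1 (3.37-fold and 3.85-fold), and for cysteinyl leukotrienes, Cysltr1 (2.80-fold and 3.64-fold), were higher as well, and so was Fpr2 (52.1-fold and 12.4-fold). Cysltr1 was at 8.21 without ligand, 7.63 and 7.22 in naive cells given MDP and Pam3CSK4, and 9.11 and 9.08 on these pretreated arrays. Its folds are thus counted from naive values below the level without ligand. Over cells without ligand, 2 of 50 were 3-fold higher for Pam3CSK4 then MDP (Fpr2 and Pla2g7), against 1.42% of all genes, and 4 for Pam3CSK4 then Pam3CSK4, against 1.37%, where Ltb4r1 (1.71) and the prostacyclin receptor gene Ptgir (1.68) joined them, both short of it with 32 added (1.51 for Ltb4r1).

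The genes lower on the same arrays were 1 of 10 other lipoxygenase and leukotriene enzymes (Ltc4s), 2 of 8 breakdown and transport genes (Cyp4f18 and Hpgd) and, for the second against the first Pam3CSK4, 1 of 15 phospholipase and lipid remodelling genes (Lpcat1). Ltc4s, the synthase that joins glutathione to the leukotriene precursor, was at 9.50 without ligand and between 9.10 and 9.49 on the naive stimulated and MDP-pretreated arrays. It was at 7.55 for Pam3CSK4 then MDP and 7.21 for Pam3CSK4 then Pam3CSK4, 3.84-fold and 4.23-fold below the naive counterparts. Cyp4f18, a leukotriene hydroxylase, was 3.19-fold and 3.47-fold lower, though its averaged probe sets were at -0.98 in the first of these. Hpgd, which inactivates prostaglandins, was at 7.04 without ligand, 6.46 and 6.63 in naive cells given MDP and Pam3CSK4, 5.71 and 5.61 on the MDP-pretreated arrays, and below the median (4.38 and 4.69) on the Pam3CSK4-pretreated ones, at -0.94 or lower and -1.10 or lower, so that 2 of the 3 genes counted as lower for Pam3CSK4 then MDP were past 2-fold by their bounds. Without probe sets ending in _x_at, _s_at or _a_at, Hpgd was at -0.26 and -0.57, so this result rests on a probe set with such an ending. Lpcat1 was 2.37-fold lower for the second than for the first Pam3CSK4, or at -0.78 when its probe sets are averaged. Its levels were 10.17 for Pam3CSK4 then Pam3CSK4, 11.42 in naive cells given Pam3CSK4 and 10.43 without ligand. Of the 5 other prostanoid synthase genes, Tbxas1 and Hpgds among them, none was past 2-fold in either comparison. The marker lists that differ on these arrays are given above beside Ptgs2 and Ptges, and their part in these differences was not tested either.

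**Figure D5:**
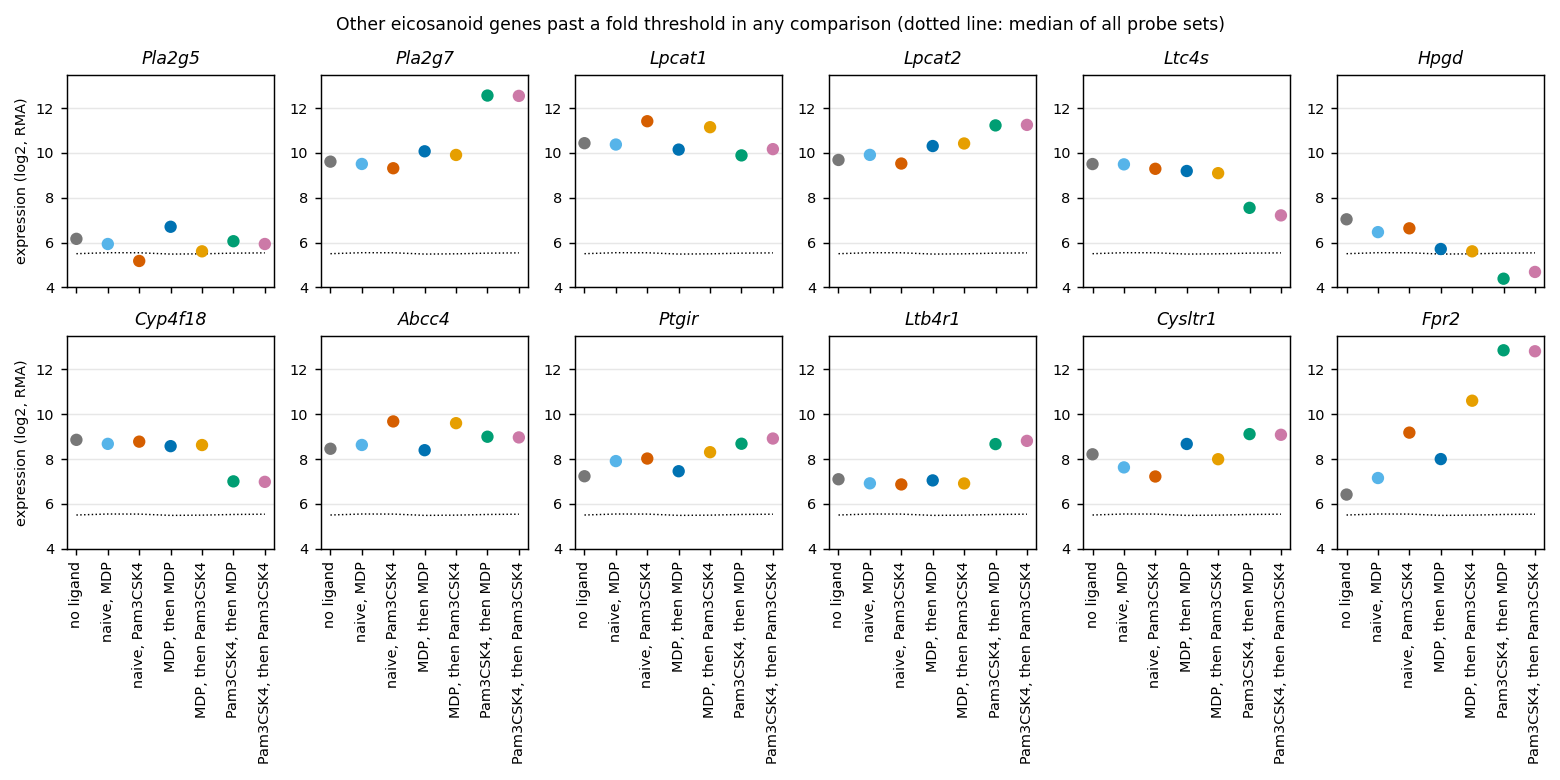
Expression (log2) on the 7 arrays of the 12 other eicosanoid genes that passed a fold threshold in any comparison, 1 point per array, with the median of all probe sets as a dotted line. Pla2g7, Lpcat2, Ltb4r1, Cysltr1, Ptgir and Fpr2 are highest, and Ltc4s, Cyp4f18 and Hpgd lowest, on the 2 Pam3CSK4-pretreated arrays.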

How the data were processed

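The authors deposited log2 expression values per Affymetrix probe set, which the submitters' processing notes tie to RMA and affy. Versions, probe set definitions and the arrays normalized together are not given in the sources used here. RMA equalises the distribution between arrays, so a shift of all genes would not be seen. The table held 45101 probe sets on 7 arrays. Symbols came from the platform annotation. For each of 18193 genes, the brightest probe set on average was taken among those with 1 symbol (34945), leaving out control probe sets, the 932 with several symbols and those with none. Differences between single arrays were computed for 13 comparisons across all genes, counted on the deposited values at 3-fold over cells without ligand and at 2-fold otherwise. With 1 array per group no test was possible, and precision is limited by that number. The members, the lists and the likeness rule (the 3 non-members with the highest r) were chosen with earlier results of these data known. All measured members are named, and up to 6 other pathway genes past a threshold per comparison, by size. Beyond that rule, Lpcat1 and Lpcat2 after Pam3CSK4 pretreatment, Cysltr1 under MDP and Cyp4f18 under Pam3CSK4 are named to complete the counts, after their values were seen. RefSeq promoters were matched by symbol for 9 of the 10 genes. Alternatives were centring on array medians or on 7 housekeeping genes, cyclic loess (limma 3.58.1, R 4.3.3, span 0.7, 3 iterations), the mean of the probe sets of a gene, leaving out probe sets ending in _x_at, _s_at or _a_at, filters at the array median or 75th percentile, 32 added to the linear values, and the other fold threshold. The calculation was tested on simulated data. Python 3.11.15 with pandas 2.3.3 was used.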

Additional observations from a re-analysis of the deposited data

Results flagged for a closer look

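After Pam3CSK4 pretreatment, the difference of Ptgs2 from naive cells given the same ligand in the last 3 h had opposite signs for the 2 ligands. This difference was 4.25 as deposited (at least 3.65 by the bound) with MDP and -2.19 with Pam3CSK4. The comparisons share no array, and with 1 array each the difference between them was not tested. The levels on the 2 pretreated arrays were close, at 9.19 and 8.59, and those on the naive arrays were far apart, at 4.94 and 10.78. The second Ptgs2 probe set gave 2.92 and -2.33.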

How the results depend on the processing

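No paired analysis was possible because all 7 arrays carry the same replicate number, with 1 array per group, and for the same reason no replicate could be left out. Of 117 recomputed counts of members past a fold threshold, 114 were within 1.5 times the main count. In naive cells given MDP, 2 members (Ptges, as deposited and not by its bound, and Ptger4) were past 2-fold where 0 were past 3-fold. Between the naive ligands, 2 were past 3-fold where 4 were past 2-fold. For the second against the first Pam3CSK4, 2 were lower with the mean of the probe sets of a gene, against 1. Of 611 recomputed member differences, 609 kept their side of the threshold, 2 crossed it (Ptger4 and Pla2g4a, values above) and 0 past the threshold changed sign. Of 910 for the 12 other named pathway genes, an alternative chosen after seeing the data, 35 crossed it and 0 changed sign. Leaving out probe sets ending in _x_at, _s_at or _a_at removed Pla2g4a, which left 7 members. Those 7 kept the same values in that setting, as did members with 1 probe set when probe sets were averaged. Part of the 611 was thus fixed in advance. Signal below the array median limits Ptgs2 on the 3 arrays without Pam3CSK4 and Ptges on the array without ligand, and differences from those are bounds or not given.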
